A study of Mus musculus with 15 samples.

Results

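The 36 genes described here code for the subunits of voltage-gated sodium channels, voltage-gated calcium channels and HCN channels, the channels of the hyperpolarization-activated current. They were chosen by name: a symbol beginning with Scn, Cacna, Cacnb, Cacng or Hcn and a digit matched 44 of the 36814 genes of the deposited table, and a gene was kept where at least 3 of the 15 libraries held 10 or more reads. The rule used no difference between samples. By subfamily, 7 of 10 sodium channel alpha genes were kept, 4 of 4 sodium channel beta genes, 8 of 10 calcium channel alpha1 genes, 4 of 4 alpha2delta genes, 4 of 4 calcium channel beta genes, 5 of 8 gamma genes and 4 of 4 HCN genes.

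The libraries were made from RNA of spinal motor neurons of wild-type mice at postnatal day 6. Each of 5 motor pools, the sets of neurons that supply a given muscle, had 3 libraries. TA stands for the tibialis anterior, EDL for the extensor digitorum longus, GS for the gastrocnemius and PL for the peroneus longus, while IF covers the several intrinsic muscles of the foot. In every pool the neurons had been marked from the muscle at postnatal day 4 with fluorescent cholera toxin B and were cut out by laser from 12 µm sections of spinal cord. A library pooled 30 to 40 cells of 2 to 5 animals per the labels, nothing ties a library to particular animals, and p-values therefore measure only the spread between these libraries.

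The alpha and alpha1 subunits of these channels form the pore and sense the voltage, and the beta and alpha2delta subunits alter gating and carry the channel to the membrane. Most proteins of the gamma group serve instead as TARPs, transmembrane partners that carry AMPA-type glutamate receptors to the synapse. HCN channels open on hyperpolarization and pass an inward current that pulls the membrane back toward threshold. In motor neurons sodium channels at the axon initial segment start the action potential, and P/Q-type calcium channels release transmitter at the neuromuscular junction.

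Total counts ran from 4417114 to 8488368 per library. PL 2 and PL 3 stood apart, with 25.7% and 29.2% of the tested genes at 0 reads, against 0.732% to 13.7% in the 13 others. In fits without both, PL is the library PL 1 alone and is taken to vary like the libraries of the other pools. The IF libraries stood apart at the other end, with 16637 to 17321 genes that had a read and 0.732% to 1.38% of the tested genes at 0, while no other library had more than 16429 such genes or less than 1.55% at 0. Pairs of IF libraries also differed less, with a chi-square per degree of freedom over genes of 9.72 to 13.3 against 39.1 to 207 in the other pools. All 3 IF libraries share this, so it and the pool cannot be told apart in the IF results. PL 3 had the highest level of 11 of the 36 channel genes, and PL 2 the highest of 8 and the lowest of 6, so results that rest on PL are given with and without these libraries. All 8 listed motor neuron markers, among them Chat, had reads in each pool and summed to between 29850 and 117097 CPM per library. The neurofilament genes Nefm and Nefl had the highest medians over the libraries, 22495 and 20154 CPM. The others were 2723 for Nefh, 947 for Prph, 875 for Slc5a7, 150 for Chat, 9.21 for Isl2 and 7.28 for Mnx1. Levels between pools are TMM-scaled CPM, counts relative to an effective library size. Levels between genes are the authors' RPKM, which divides by gene length.

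**Figure D1:**
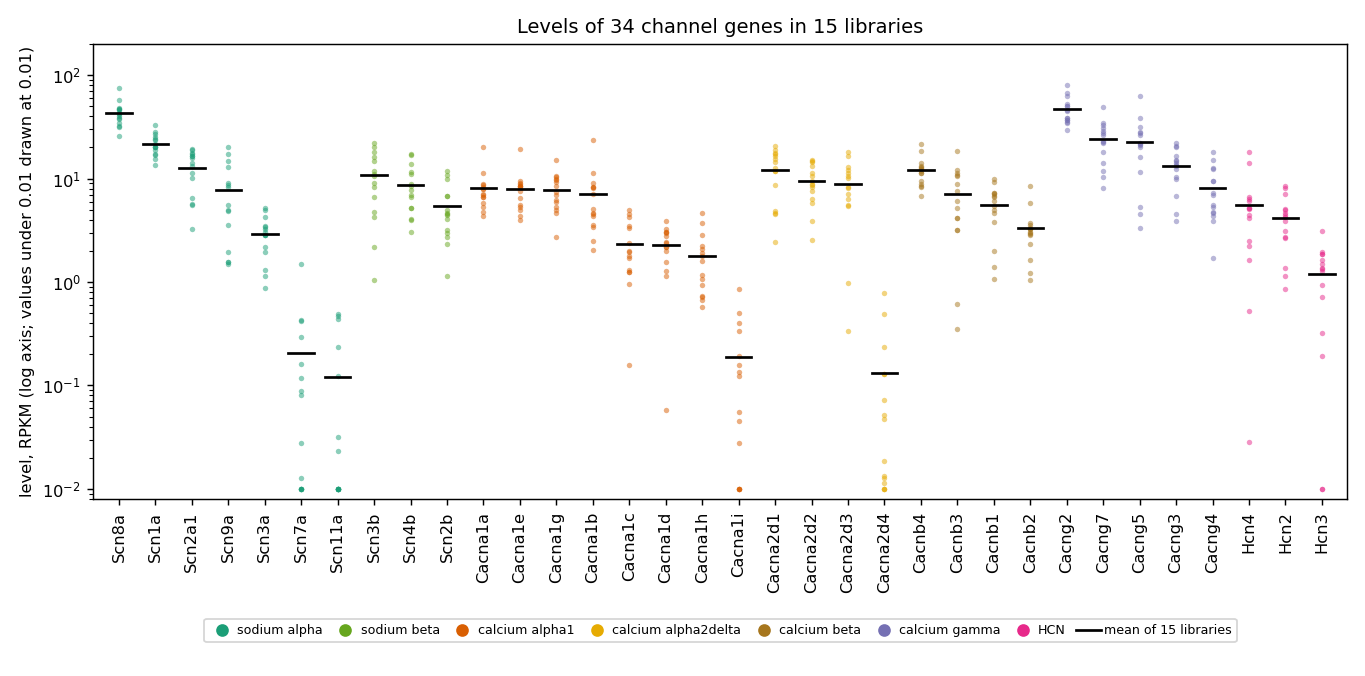
Level of 34 channel genes in RPKM on a log axis, 1 point per library (15 libraries) and a black bar at the mean, grouped and coloured by subfamily. The means run from 0.120 for Scn11a to 46.9 for Cacng2, and 4 genes lie under 1.

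By mean RPKM over the 15 libraries, 46.9 for Cacng2 was the highest level. Other high levels were 43.2 for Scn8a, 24.0 for Cacng7, 22.7 for Cacng5 and 21.7 for Scn1a. Of the 36 genes 12 lay over 10 RPKM, and 4 lay under 1, namely Scn7a (0.208), Cacna1i (0.189), Cacna2d4 (0.132) and Scn11a (0.120). The 3 genes just inside the read threshold were Cacna2d4, with 10 reads in 4 libraries, Scn11a in 5 and Scn7a in 6. Just outside it was Cacng8, with 2 such libraries. Of the genes not kept, 5 had no read in any library: Scn4a and Cacna1s, the sodium and calcium channels of skeletal muscle, Cacng1 and Cacng6, gamma subunits of the muscle type, and Scn10a of sensory neurons. No gene was kept through the libraries of 1 pool alone, and all 36 entered the test.

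The test for any difference among the 5 pools called 3 of the 36 channel genes, while it called 1.31% of all 14340 tested genes. These 3 belong to separate subfamilies. Cacng5 is a TARP (edgeR quasi-likelihood F-test, Benjamini-Hochberg adjusted p = 0.00803). Scn9a is a sodium channel alpha gene best known from sensory neurons (adjusted p = 0.0143 by edgeR). Cacna2d1 codes for an alpha2delta subunit that binds gabapentin (adjusted p = 0.0304 by edgeR). Contrasts of single pools added Cacng7, another TARP, and Cacna1e, the R-type calcium channel. The remaining 31 channel genes were called in no comparison by edgeR with all 15 libraries and genes of low count filtered out. Of these 31, Cacng2, Cacnb3 and Cacnb4 were called among the 5 pools without that filter (edgeR adjusted p = 0.0126, 0.0433 and 0.0339). With the filter, 14 of the 36 had an unadjusted edgeR p under 0.05 among the 5 pools, against 15.5% of all tested genes. DESeq2 called 9 in that comparison and limma voom 3. For these tools, and for the fits that leave out a library, the share of all genes called is not given here. Without IF 1, IF 2 or IF 3 the count was 0, with an edgeR adjusted p of 0.0538 to 0.0751 for Cacng5. Without TA 2 it was 1, without PL 1 it was 10, and without PL 2 it was 5.

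**Figure D2:**
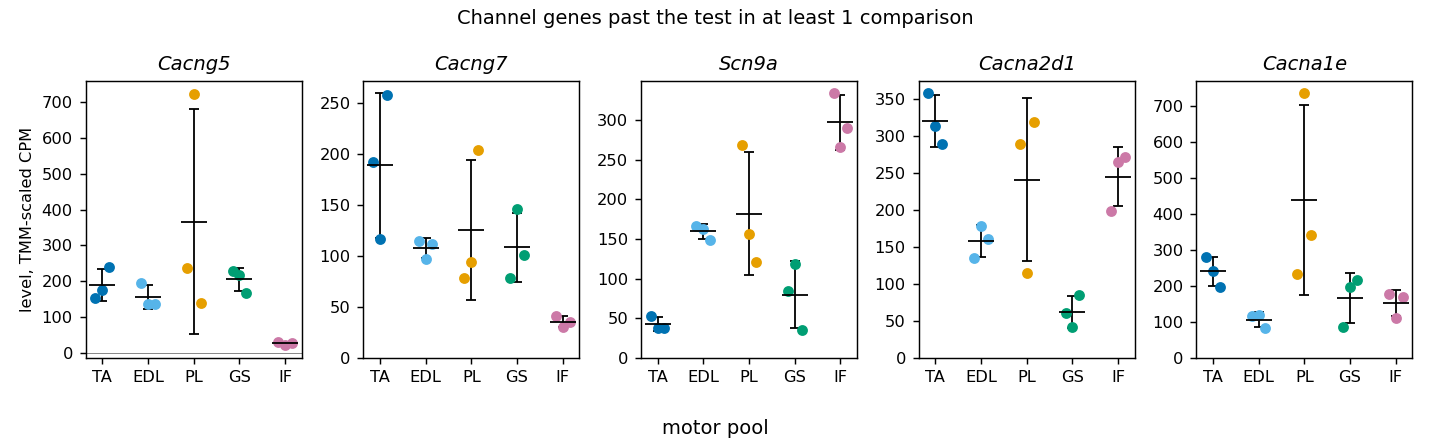
TMM-scaled CPM of the 5 channel genes called in at least 1 comparison, by motor pool. Points are libraries (3 per pool), the bar is the mean and the whisker the SD. The IF libraries lie lowest for Cacng5 and Cacng7 and the GS libraries for Cacna2d1, while PL 2 lies far above the rest for Cacng5 and Cacna1e.

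In the IF pool, 2 channel genes fell and 1 rose against the other 4 pools, where 1.10% of all tested genes were called, 0.397% lower and 0.704% higher. The falling genes were both TARPs. Without IF 1, IF 2 or IF 3 the 3 calls came to 1, and with library totals or the deposited RPKM divisor 1 gene rose and 1 fell. Cacng5 was at 155, 176 and 239.5 CPM in TA, 195, 137 and 138 in EDL, 237, 724 and 139 in PL, 229.8, 219 and 169 in GS and 31.2, 21.4 and 27.6 in IF. Every IF library lay below the 12 others, whose lowest was 137 CPM, and among those PL 2 stood out at 724. The log2 fold change in IF was -3.03 ± 0.46 (SE; adjusted p = 0.00203, edgeR quasi-likelihood test), and Cacng5 was the 1 channel gene whose contrast of a pool against the other 4 passed under all 23 alternative settings. Against single pools it was lower in IF than in PL (3.78 ± 0.52 for PL minus IF), GS (2.94 ± 0.50), TA (2.83 ± 0.50) and EDL (2.55 ± 0.50), with edgeR adjusted p of 0.00121, 0.0209, 0.00816 and 0.0364. In these 4 pairs 0.900%, 0.126%, 0.628% and 0.202% of all genes were called. A lower level in a pooled library can come from fewer cells that hold the RNA or from less RNA per cell, and these cannot be told apart.

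Single libraries decided some of these pairs. The TA minus IF call of Cacng5 was lost without IF 1, IF 2 or IF 3 (edgeR adjusted p = 0.0559 to 0.0912), and the GS minus IF call without GS 1, GS 2 or any IF library (0.0594 to 0.208) and with limma voom (0.0696). The EDL minus IF call was lost without any 1 of 11 libraries (0.0510 to 0.355 by edgeR), with the PL libraries and TA 3 the exceptions, and with limma voom (0.108). The PL minus IF call passed without each single library. It also passed without PL 2 and PL 3, a fit in which PL has n = 1 and the spread comes from the other pools, but not when the 6 libraries of the pair were fitted alone (edgeR adjusted p = 0.223).

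Cacng7 was at 192, 116 and 258 CPM in TA, 114, 96.4 and 111 in EDL, 78.2, 93.9 and 204 in PL, 78.2, 145 and 101 in GS and 40.5, 29.7 and 35.6 in IF. Its IF libraries also lay below all others, of which the lowest, PL 1 and GS 1, were both at 78.2 CPM. The fold in IF was -1.87 ± 0.41 on the log2 scale (edgeR adjusted p = 0.0292), and the TA minus IF difference was 2.42 ± 0.47 (edgeR adjusted p = 0.0179). The first call was lost in 10 of the 15 fits that left out a single library, those without TA 1, TA 3, GS 2, GS 3 or any library of EDL or IF, with edgeR adjusted p from 0.0504 to 0.278. The second was lost without TA 1, TA 3 or any IF library (0.0565 to 0.190 by edgeR). Library totals (0.0554), the deposited RPKM divisor (0.0740) and limma voom (0.0560) also left the IF fold of Cacng7 short of the threshold, and the divisor did so for TA minus IF (0.0697 by edgeR).

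The other 3 gamma genes did not pass in IF. Cacng2, which codes for stargazin, the founding TARP and the gamma gene of highest level, was at 685, 835 and 1053 CPM in TA, 352, 423 and 345 in EDL, 316, 862 and 796 in PL, 331, 563 and 724 in GS and 299.6, 335 and 321 in IF. TA stood at 858 ± 185 (SD, n = 3) and IF at 319 ± 18.0, while PL and GS overlapped both EDL and TA, and the IF fold was -0.87 ± 0.30 (edgeR adjusted p = 0.245). The TA minus IF difference of Cacng2 was 1.43 on the log2 scale (edgeR adjusted p = 0.0907). It was called by DESeq2 (adjusted p = 0.0391), limma voom (0.0416) and edgeR on the 6 libraries of the pair alone (0.0184). Cacng3 had pool means of 25.5 to 54.7 CPM and an IF value of -0.09 ± 0.51. Cacng4 had pool means of 31.8 to 98.8 CPM and an IF value of 0.53 ± 0.45, on the other side of 0 from its neighbour Cacng5, which lies 80.0 kb away on the same strand of chromosome 11. As shares of the summed RPKM of the 5 gamma genes, Cacng5 made up 5.65% ± 1.32 in IF against 29.3% ± 17.8 in PL, 24.4% ± 7.55 in GS, 20.1% ± 3.17 in EDL and 14.4% ± 1.09 in TA. Cacng2 kept 33.6% to 46.5% in every pool mean. Cacng4 took 15.7% ± 2.95 in IF against 4.39% to 8.57% in the other means.

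In mm9, the build of the deposited table, Cacng5 (ENSMUSG00000040373) spans chr11:107735919-107776370 on the minus strand, Cacng7 (ENSMUSG00000069806) spans chr7:3333055-3367811 on the plus strand, Scn9a (ENSMUSG00000075316) spans chr2:66318137-66473010 on the minus strand and Cacna2d1 (ENSMUSG00000040118) spans chr5:15440509-15880330 on the plus strand. The promoters of these 4 genes, whose calls in IF, TA and GS stood without PL 2 and PL 3, are printed to show how their start regions differ. They are the 250 bases before the RefSeq start on GRCm38.p6, a build other than mm9. Capitals mark matches on either strand to the GC box GGGCGG, read as CCGCCC on the other strand, to CCAAT, read as ATTGG, and to TATAAA, and matches may overlap. The first of the sequences is the upstream window of the pair listed for Cacng5. The other window held no match.
Cacng5 (chr11:107915056-107915305, minus strand): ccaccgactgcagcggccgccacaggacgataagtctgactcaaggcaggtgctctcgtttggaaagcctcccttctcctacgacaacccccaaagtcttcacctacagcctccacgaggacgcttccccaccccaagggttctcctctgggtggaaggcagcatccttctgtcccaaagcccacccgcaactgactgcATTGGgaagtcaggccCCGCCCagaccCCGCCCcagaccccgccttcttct
Cacng7 (chr7:3332575-3332824, plus strand): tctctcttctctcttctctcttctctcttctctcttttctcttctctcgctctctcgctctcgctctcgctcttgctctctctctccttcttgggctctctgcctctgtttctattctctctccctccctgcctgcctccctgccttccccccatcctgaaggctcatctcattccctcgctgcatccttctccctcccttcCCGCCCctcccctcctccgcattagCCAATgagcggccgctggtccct
Scn9a (chr2:66634963-66635212, minus strand): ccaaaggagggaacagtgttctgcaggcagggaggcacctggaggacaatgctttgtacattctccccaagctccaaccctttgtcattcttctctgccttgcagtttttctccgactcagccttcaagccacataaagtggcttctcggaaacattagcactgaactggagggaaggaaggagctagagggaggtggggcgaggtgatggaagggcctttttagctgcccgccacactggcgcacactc
Cacna2d1 (chr5:15934441-15934690, plus strand): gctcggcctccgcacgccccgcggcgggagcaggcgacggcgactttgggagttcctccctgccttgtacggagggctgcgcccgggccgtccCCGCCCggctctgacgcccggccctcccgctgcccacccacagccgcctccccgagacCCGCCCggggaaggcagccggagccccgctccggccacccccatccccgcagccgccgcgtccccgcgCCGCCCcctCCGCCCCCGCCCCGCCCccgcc
The Cacng5 and Cacng7 windows each held a GC box and a CCAAT match within 51 bases of the start, with 2 GC boxes for Cacng5 and 1 for Cacng7. The Scn9a window held none of the 3 motifs, and that of Cacna2d1 held 6 GC boxes, 36 CG pairs and no CCAAT. Of all 32851 windows of this length 32.7% held a GC box, 33.8% a CCAAT and 12.4% a TATAAA. RefSeq windows were matched for 26 of the 36 channel genes by symbol or synonym, and of their 37 windows 15 (40.5%), 9 (24.3%) and 2 (5.41%) held the 3 motifs in that order. These are matches of letters, and no readout of binding was analysed.

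Scn9a was the channel gene that rose in IF. It was at 52.6, 37.7 and 38.0 CPM in TA, 167, 163 and 149 in EDL, 269, 157 and 120.5 in PL, 84.3, 119 and 34.9 in GS and 334, 267 and 290.3 in IF. The IF libraries were the top of the 15 but for PL 1, which lay between IF 2 and IF 3, and the 3 TA libraries and GS 3 were the lowest. Its log2 fold was 1.58 ± 0.31 in IF (edgeR adjusted p = 0.0153). In TA, where 1 channel gene was called and 0.418% of all genes were (0.132% lower), Scn9a fell by 1.92 ± 0.39 (edgeR adjusted p = 0.0339). The TA minus IF difference of -2.80 ± 0.46 (edgeR adjusted p = 0.00520) was called under all 24 alternatives. The IF call was lost without IF 1, IF 2 or IF 3 (edgeR adjusted p = 0.0929 to 0.133), and the 5-pool call without any of those or TA 2 (0.0506 to 0.0674). The TA call was lost without any 1 of 11 libraries, all of TA, EDL and IF with GS 1 and GS 2 (0.0520 to 0.136 by edgeR), and with limma voom (0.0793).

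Scn8a, the sodium channel of mature initial segments and nodes of Ranvier, had the highest level of the alpha genes. It was at 1587, 1188 and 1211 CPM in TA, 526, 890.5 and 687 in EDL, 918, 1250.5 and 1143 in PL, 600.4, 1687 and 1088 in GS and 728, 585 and 700.3 in IF. TA libraries were at 1188 CPM or more and IF libraries at 728 or less, while PL and GS overlapped TA, and EDL overlapped IF. None of its folds passed by edgeR with all 15 libraries, with 0.60 ± 0.24 in TA (edgeR adjusted p = 0.320) and -0.63 ± 0.26 in IF (0.418 by edgeR). The TA minus IF log2 fold of Scn8a was 0.98 (edgeR adjusted p = 0.227). With the 6 libraries of that pair fitted alone it was 0.95 and was called (edgeR adjusted p = 0.0382). Scn1a had pool means of 351 to 667 CPM. It lies 39.2 kb from Scn9a on chromosome 2. Its order of pools from high to low was PL, TA, GS, EDL and IF, each overlapping the next, with an IF value of -0.55 ± 0.24 (edgeR adjusted p = 0.461).

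Scn2a1, now named Scn2a, an early channel of the initial segment, is described here for a pattern noticed in its values. It was at 130.1, 138 and 124 CPM in TA, 297, 242 and 263 in EDL, 340.0, 90.7 and 415 in PL, 191, 211 and 194 in GS and 276, 255 and 242 in IF. TA lay below every EDL, GS and IF library, and the spread of PL, with the lowest value of all in PL 2, covered the whole range. The TA fold was -0.93 ± 0.34 (edgeR adjusted p = 0.272), and without PL 2 and PL 3 it was -1.02 with an edgeR adjusted p of 0.0196. Scn3a, which is most active before birth, had pool means of 49.5 to 96.7 CPM. Scn7a, the atypical sodium-sensing channel, and Scn11a of nociceptors were at or near 0, with a highest library of 17.7 and 5.52 CPM. Scn11a had no read in any TA or GS library.

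Within the alpha family the makeup by RPKM differed between pools. Scn8a took 60.2% ± 6.65 of the summed alpha RPKM in TA, 55.7% ± 13.8 in GS, 47.6% ± 12.2 in PL, 42.4% ± 7.73 in EDL and 38.8% ± 1.88 in IF. Scn9a took 17.7% ± 0.437 in IF, 10.1% ± 1.03 in EDL, 8.05% ± 3.42 in PL, 4.29% ± 2.14 in GS and 2.00% ± 0.281 in TA. Every IF library had a higher Scn9a share than the 12 others, a description free of the scaling between libraries. The same held for the smaller share of Scn3a, at 4.94% ± 0.428 in IF against 2.63% to 3.21% in the other pool means.

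**Figure D3:**
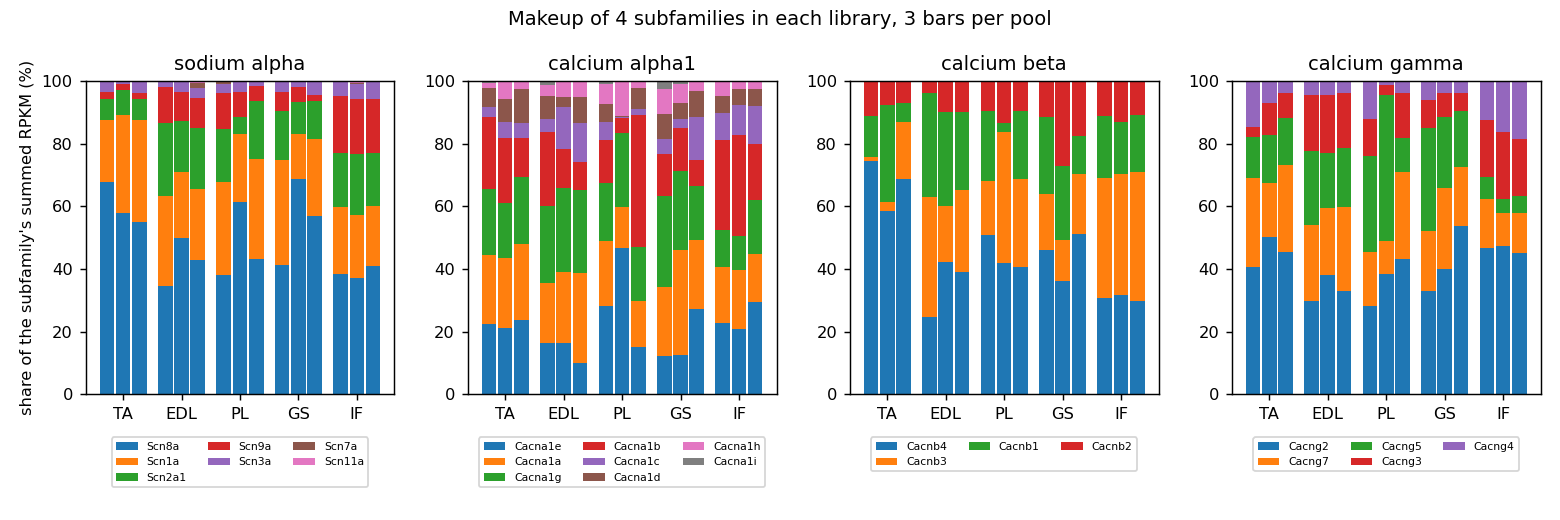
Share of each gene in the summed RPKM of its subfamily, in percent, for the sodium alpha, calcium alpha1, calcium beta and gamma groups. Each bar is 1 library, 3 per pool. Scn9a takes more of the sodium alpha sum in IF (17.7%) than in TA (2.00%), and Cacng5 less of the gamma sum in IF (5.65%) than in TA (14.4%).

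No sodium channel beta gene was called in any comparison by edgeR with all 15 libraries, with 1 of 4 at an unadjusted p under 0.05 among the 5 pools, 1 called there by DESeq2 and 0 by limma voom. Scn4b, a subunit tied to resurgent sodium current, had the smallest p of the group and was at 214, 188 and 101 CPM in TA, 64.2, 91.4 and 62.6 in EDL, 50.1, 97.1 and 64.0 in PL, 89.6, 138 and 53.2 in GS and 67.3, 32.5 and 23.9 in IF. TA held its 2 highest libraries, but TA 3 lay below GS 2, and its 5-pool adjusted p by edgeR was 0.195. The genes Scn2b and Scn4b lie 8.37 kb apart on chromosome 9. Their pool means ran from 35.8 to 54.3 CPM for Scn2b, where every pool overlapped every other, and from 41.2 to 167 for Scn4b, lowest in IF. Scn3b had 140.2 ± 32.9 CPM in IF and 37.0 ± 22.0 in TA, with a TA fold of -1.53 ± 0.56 (edgeR adjusted p = 0.272). The TA minus IF log2 folds were 2.02 for Scn4b and -1.92 for Scn3b with all libraries, neither called by edgeR. DESeq2 with all libraries called Scn4b in that pair (adjusted p = 0.00974) and did not call Scn3b. Without PL 2 and PL 3 the folds were 1.98 and -1.96, and whether they passed in that fit is not given here.

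Cacna2d1 was the alpha2delta gene that differed between pools, and it was lower in GS. It was at 358, 313 and 289 CPM in TA, 135, 178 and 161 in EDL, 288, 115 and 319 in PL, 60.7, 41.4 and 84.2 in GS and 198, 265 and 271 in IF. The GS libraries lay below the 12 others, of which PL 2 was the lowest at 115 CPM, while the TA libraries and PL 3 were the highest. In GS its log2 fold was -1.91 ± 0.35 (edgeR adjusted p = 0.0411), the 1 channel gene called of 36 where 0.126% of all genes were called and 0.0349% lower. The TA minus GS difference was 2.37 ± 0.41 (edgeR adjusted p = 0.0289, with 0.0628% of all genes called in that pair).

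These calls of Cacna2d1 rested on the full set of libraries. The GS call was lost without any single library of TA, EDL, GS or IF (0.0651 to 0.274 by edgeR), the 5-pool call without any 1 of 11 libraries, PL and TA 3 excepted (0.0580 to 0.116), and the TA minus GS call without any 1 of 11, PL and EDL 1 excepted (0.0540 to 0.202). Library totals and the deposited RPKM divisor gave edgeR adjusted p of 0.0900 and 0.0899 among the 5 pools and 0.0848 and 0.109 for TA minus GS. The GS call was also lost with library totals (0.0843 by edgeR), the deposited RPKM divisor (0.0691) and limma voom (0.0958). The fit of the 6 libraries of TA and GS alone gave an edgeR adjusted p of 0.0756 for their difference. In the summed RPKM of its group Cacna2d1 made up 18.5% ± 3.96 in GS and 56.5% ± 6.11 in TA, with 38.4% to 40.8% in the other pool means. Cacna2d2 and Cacna2d3, the other alpha2delta genes of the nervous system, had pool means of 69.9 to 187 and 29.5 to 93.3 CPM and no call by edgeR with all 15 libraries. Without PL 1, Cacna2d3 was called among the 5 pools (edgeR adjusted p = 0.0283), and Cacna2d2 and Cacna2d3 were called in PL in opposite directions. Their log2 folds in PL were 1.28 for Cacna2d2 (edgeR adjusted p = 0.0260) and -3.23 for Cacna2d3 (edgeR adjusted p = 0.00301). Cacna2d3 had 680, 34 and 18 reads in PL 1, PL 2 and PL 3. Cacna2d4, the retinal form, had 150 reads in all and lies over Lrtm2 on the opposite strand, which had 9167, so its few reads are uncertain in libraries that do not mark strand.

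**Figure D4:**
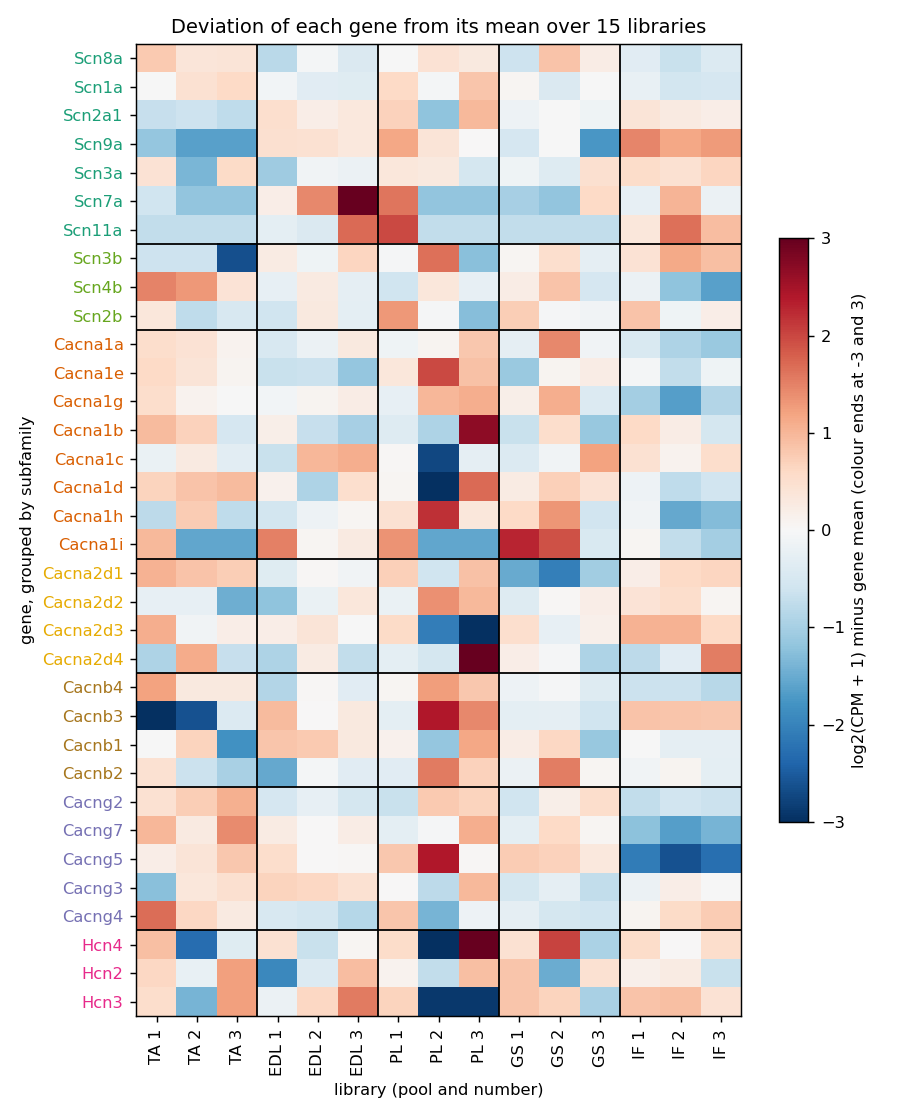
Deviation of log2(CPM + 1) from each gene's mean over the 15 libraries, for 34 channel genes (rows, coloured by subfamily) and the 15 libraries (columns). Red is above and blue below the gene's mean. Cacng5 and Cacng7 are blue in all 3 IF columns and Cacna2d1 in all 3 GS columns, and the columns of PL 2 and PL 3 hold most of the deepest shades.

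In the PL pool 2 channel genes rose against the other 4, Cacng5 and Cacna1e, where 4.50% of all tested genes were called higher and 4.87% in either direction. Cacna1e was at 280.2, 243 and 198 CPM in TA, 117, 119 and 82.3 in EDL, 234, 737 and 343 in PL, 85.8, 196 and 217 in GS and 177, 112 and 169.6 in IF. PL 2 was the highest library by a wide margin, PL 3 the next, and PL 1 lay below TA 1 and TA 2. The log2 folds in PL were 1.46 ± 0.31 for Cacna1e (edgeR adjusted p = 0.0123) and 1.70 ± 0.33 for Cacng5 (edgeR adjusted p = 0.00821). Without PL 2 they were 0.85 and 0.73, with edgeR adjusted p of 0.159 and 0.197. Without PL 2 and PL 3 the folds of PL 1 alone were 0.55 and 1.06, and with n = 1 the loss of the calls in that fit says little. The calls were also lost with library totals, the deposited RPKM divisor and limma voom, with adjusted p of 0.0754 to 0.121 for Cacng5 and 0.0666 to 0.155 for Cacna1e. Without PL 1, a fit in which PL is PL 2 and PL 3 alone, 11 channel genes were called in PL. The share of all genes called in that fit is not given here, so the 11 cannot be read as a result about channel genes. Markers of endothelial and mural cells, of which all 8 had reads, summed to between 614 and 1734 CPM in PL and to between 64.2 and 533 elsewhere. Their PL means were 1065 CPM for the pericyte gene Rgs5, 224 for Cdh5, 10.6 for Cldn5, 9.24 for Flt1 and 5.21 for Kdr. They were 2.93 for Pdgfrb, 0.830 for Kcnj8 and 0.0361 for the endothelial gene Pecam1. Cdh5 had means of 1.39 to 6.43 CPM in the other pools. The part of such cells in the PL values was not tested.

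The alpha1 genes, which form the calcium pore, had no call by edgeR outside PL with all 15 libraries and the low-count filter. Without that filter Cacna1e was called among the 5 pools and Cacna1g in IF (edgeR adjusted p = 0.00292 and 0.0312). Among the 5 pools 2 of the 8 had an unadjusted p under 0.05, DESeq2 called 2 and limma voom 0. Cacna1a, the P/Q-type pore, had the highest mean RPKM of the group, 8.04, against 7.92 for Cacna1e, 7.84 for the T-type gene Cacna1g and 7.08 for the N-type gene Cacna1b. By median RPKM Cacna1e was the highest. Cacna1a was at 248, 230.4 and 183 CPM in TA, 123, 150.4 and 211 in EDL, 155, 180.5 and 299.8 in PL, 141, 463 and 158 in GS and 125, 90.2 and 78.3 in IF. GS 2 was the highest library and the IF libraries were among the lowest, but IF 1 lay above EDL 1. The IF fold was -1.10 ± 0.38 (edgeR adjusted p = 0.252). Cacna1g was at 212, 157 and 143 CPM in TA, 139, 154 and 171 in EDL, 123, 294 and 311 in PL, 164, 309 and 110.0 in GS and 71.5, 45.4 and 78.6 in IF. It was the third channel gene, with Cacng5 and Cacng7, whose IF libraries all lay below the 12 others, as 1.22% of all tested genes did, and its IF fold of -1.53 ± 0.39 had an edgeR adjusted p of 0.0705, or 0.0253 without PL 1. In the same count GS had Cacna2d1 alone, where the share of all genes was 0.126%, and no channel gene lay apart in TA, EDL or PL or above the others in any pool. Over all tested genes, the shares that lay above the 12 others were 0.635% in TA, 0.418% in EDL, 0.621% in PL, 0.251% in GS and 1.88% in IF, and the shares below were 0.558% in TA, 0.237% in EDL and 1.21% in PL.

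By RPKM, T-type genes made up 16.6% ± 3.38 of the summed alpha1 RPKM in IF, 23.6% ± 0.603 in TA, 26.7% ± 7.78 in PL, 30.9% ± 9.63 in GS and 30.9% ± 1.28 in EDL. P/Q-type took 16.1% ± 4.15 in PL to 25.8% ± 6.50 in GS, N-type 11.7% ± 3.02 in GS to 26.3% ± 7.67 in IF, R-type 14.2% ± 3.62 in EDL to 30.1% ± 16.0 in PL, and L-type, the sum of Cacna1c and Cacna1d, 6.94% ± 5.77 in PL to 16.2% ± 4.69 in EDL. Cacna1h had pool means of 15.8 to 71.0 CPM and Cacna1i of 1.07 to 8.16. Cacna1d and Cacna1c, at 24.7 to 62.2 and 21.5 to 52.9 CPM, overlap Dcp1a and Dcp1b on the opposite strand, genes with 74.8% and 20.3% as many reads as they, so part of the L-type reads is uncertain.

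No calcium channel beta gene was called by edgeR in any comparison of all 15 libraries with the low-count filter. Among the 5 pools 2 of 4 had an unadjusted edgeR p under 0.05, 2 were called by DESeq2 and 0 by limma voom. Without the filter Cacnb4 and Cacnb3 were called among the 5 pools (edgeR adjusted p = 0.0339 and 0.0433). Cacnb4, the subunit of highest level, was at 479, 254 and 256 CPM in TA, 113, 212 and 163 in EDL, 215, 493 and 363 in PL, 185, 203 and 158 in GS and 131, 133 and 115 in IF. The IF libraries were at or below 133 CPM and EDL 1 lay below them all, while PL 2 and TA 1 were the highest. The 5-pool adjusted p by edgeR was 0.0935, and reads of A430018G15Rik on the opposite strand equalled 31.4% of those of Cacnb4. Cacnb3 was at 2.71, 4.33 and 23.6 CPM in TA, 61.2, 31.5 and 38.5 in EDL, 25.3, 171 and 87.8 in PL, 25.4, 26.0 and 20.6 in GS and 57.8, 56.6 and 55.7 in IF. Its TA 1 and TA 2 values were the lowest of all, and the IF libraries lay between 55.7 and 57.8 CPM, but the TA fold of -2.25 ± 0.72 did not pass (edgeR adjusted p = 0.202). The makeup of the beta group by RPKM ran from 67.2% ± 8.16 Cacnb4 and 7.41% ± 9.34 Cacnb3 in TA to 30.7% ± 0.911 and 39.5% ± 1.49 in IF. Every TA library had a higher Cacnb4 share than all libraries of the other pools. Without PL 1, Cacnb4 and Cacnb3 were called among the 5 pools (0.0220 and 0.0426 by edgeR). Cacnb1 and Cacnb2 had pool means of 37.8 to 68.7 and 37.3 to 96.8 CPM.

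The HCN genes had 0 calls in every comparison by edgeR with all 15 libraries and the low-count filter, and by limma voom. Among the 5 pools 1 of 4 had an unadjusted edgeR p under 0.05, and DESeq2 called 0. Hcn4, the slow pacemaker form, ran from 0.319 CPM in PL 2 to 219.5 in PL 3. Hcn2 had pool means of 21.7 to 36.3 CPM and Hcn3 of 3.61 to 12.2, with no read of Hcn3 in PL 2 and PL 3. Without PL 1, Hcn3 was called lower in PL (edgeR adjusted p = 0.00683).

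**Figure D5:**
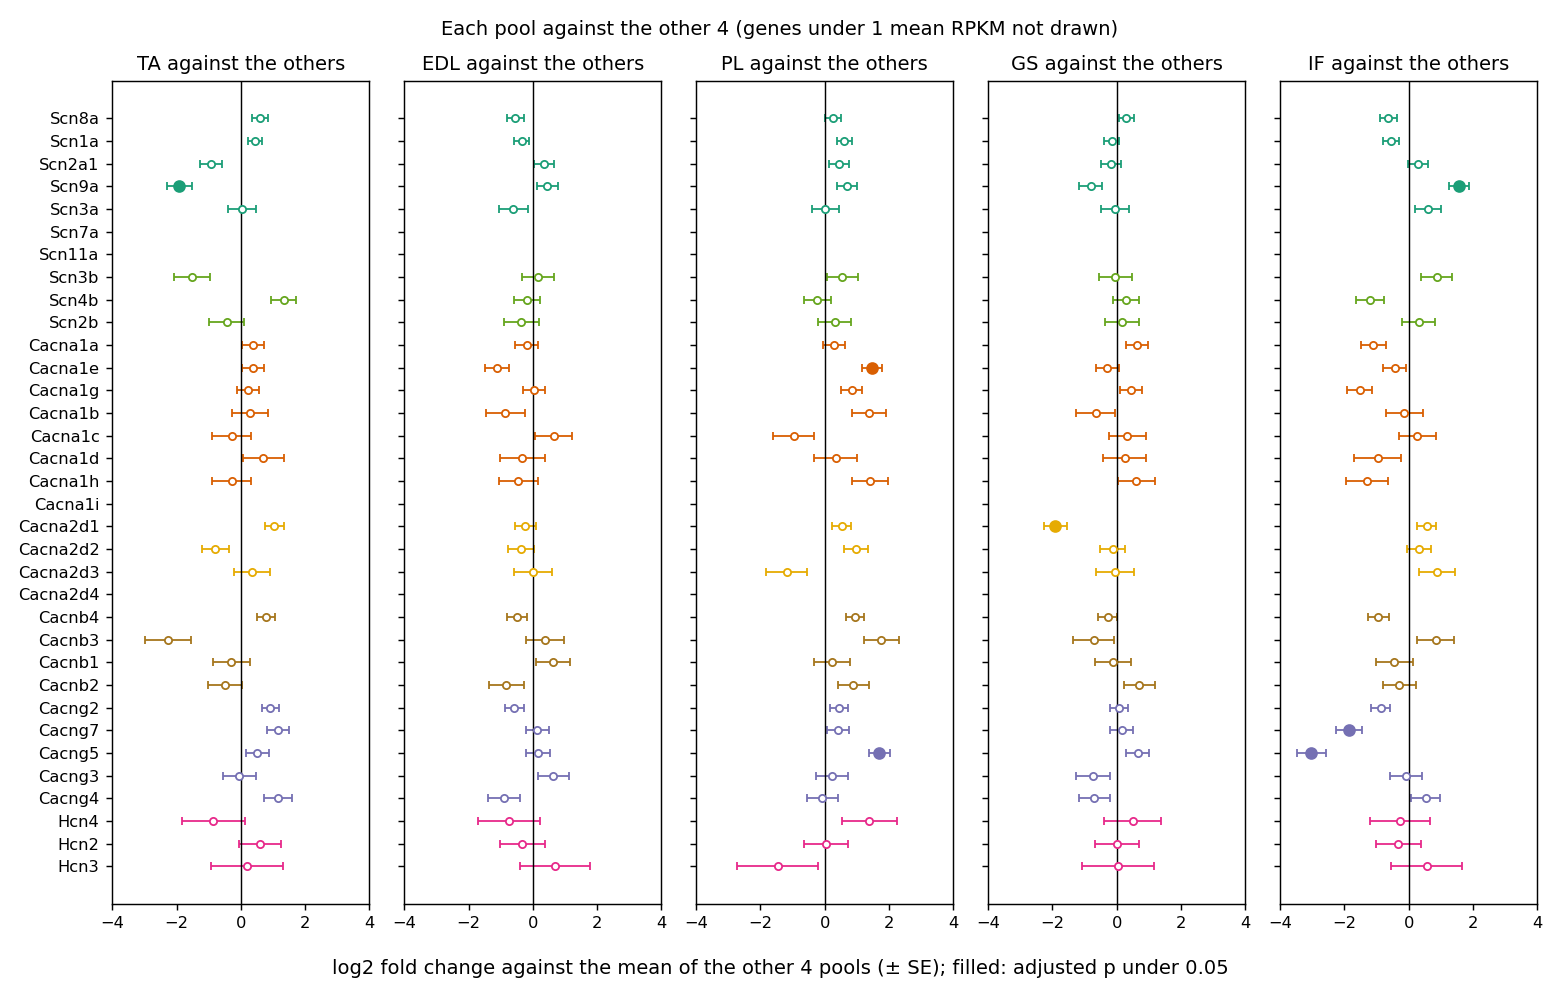
Log2 fold change of each pool relative to the mean of the 4 others (points, with SE whiskers) for 30 channel genes at 1 or more mean RPKM, 1 panel per pool, coloured by subfamily. Filled points passed edgeR's test at an adjusted p under 0.05. They are Scn9a in TA, Cacna1e and Cacng5 in PL, Cacna2d1 in GS, and Scn9a, Cacng7 and Cacng5 in IF, and EDL has none.

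The IF folds of the calcium channel genes, most of which were not called, lay on different sides of 0 by subfamily. Of the alpha1 genes 7 of 8 lay below the other pools (median log2 fold -1.03), of the gamma genes 4 of 5 (-0.87), of the beta genes 3 of 4 (-0.37), and of the alpha2delta genes 4 of 4 lay above (0.56), while the median of all tested genes was 0.02. Of these 21 genes Cacng5 and Cacng7 were the ones called. Over all 36 channel genes 21 lay below, with a median of -0.28. Scaling by library totals moved the median of all genes in IF to 0.33 and the deposited RPKM divisor moved it to 0.42. Relative to that median the counts of all 4 groups were the same under both scalings, but relative to 0 the alpha1 genes below were 6 and 5, the gamma genes 3 and 3 and the beta genes 2 and 2. Without PL 2 and PL 3, 6 of the 8 alpha1 genes and 2 of the 4 beta genes lay below. Over all channel genes 17 and 15 lay below 0 under these scalings, and 18 without PL 2 and PL 3. In IF the 14 oligodendrocyte markers, of which Opalin was at 0 in all but 1 library, summed to 238 to 249 CPM against 309 to 2525 in the other libraries. The interneuron markers, 7 of 8 with reads and Tlx3 at 0 in every library, summed to 34.8 to 71.0 CPM in IF against 120.1 to 374 elsewhere. Their directions differed. Slc6a5, Slc17a6 and Slc32a1 had their lowest pool mean in IF (9.21, 33.3 and 1.38 CPM). Gad1 and Lhx5 had their highest there (5.25 and 0.898), and Gad2 and Pax2 lay between other pools (7.82 and 0.289). The part of these cells in the IF values was not tested.

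In PL 29 of the 36 channel genes had a fold above 0, with a median log2 fold of 0.49 against -0.06 for all tested genes. Without PL 2 and PL 3 the count was 18 of 36, with a median of 0.01 against -0.15. With library totals 20 lay above 0 and with the deposited RPKM divisor 20 (all-gene medians -0.37 and -0.48). Sodium channel alpha genes lay above 0 in 7 of 7, in 6 of 7 without those libraries, and in 5 of 7 under either of those scalings. In TA 20 of 36 lay above (median 0.18 against 0.06), 18 with library totals and 15 with the deposited RPKM divisor (all-gene medians -0.12 and -0.27). Of the gamma genes 4 of 5 lay above in TA (median 0.92), under each of these scalings. None of these gamma genes was called in TA, where 11 of the 36 channel genes had an unadjusted p under 0.05 against 12.3% of all genes. Without PL 2 and PL 3 the count in TA was 5 of 36: Cacna2d1, Cacng2 and Cacng7 above, and Scn9a and Scn2a1 below, named after their values were seen. That fit called 1.44% of its 16385 tested genes in TA, against 0.418% with all libraries. Without PL 2 alone or PL 3 alone it was 2.

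In GS 18 of 36 channel genes lay above (median -0.01 against 0.04), with Cacna2d1 and the 3 other alpha2delta genes below. In EDL 15 of 36 lay above (-0.21 against 0.06), also with all 4 alpha2delta genes below. With library totals 1 of these 4 lay above 0 in each of GS and EDL, with the deposited RPKM divisor 1 in GS and 2 in EDL, and all stayed below the median of all genes. The EDL contrast called no channel gene by edgeR, DESeq2 or limma voom, where 0.0976% of all tested genes were called by edgeR. At an unadjusted edgeR p under 0.05 it had 3 of 36, against 6.42% of all tested genes. The smallest p was that of Cacna1e, at -1.10 ± 0.37 (edgeR adjusted p = 0.451). Of the 10 pairs of pools 5 had a channel gene called, 4 of them pairs with IF, for 7 calls in all. That sum was 2 without IF 1, IF 2 or IF 3, 4 without TA 1, GS 1 or GS 2, 11 without PL 2 and 31 without PL 1. The 5 other pairs had 0 calls by edgeR with all 15 libraries and the low-count filter, 5 in sum by DESeq2 and 0 by limma voom. At an unadjusted edgeR p under 0.05, 13 of 36 channel genes stood in TA and EDL, against 8.65% of all tested genes. The same count was 7 in TA and PL (17.3% of all genes), 9 in EDL and PL (15.2%), 4 in EDL and GS (3.79%) and 8 in PL and GS (14.97%). In these 5 pairs 0.0907% of all tested genes were called by edgeR for TA and EDL, 0.230% for TA and PL, 0.0488% for EDL and PL, 0.0697% for EDL and GS and 0.119% for PL and GS.

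The authors' deposited table of genes that differed between pools by DESeq held 4 of the channel genes. It is a set of lists, and those that held a channel gene had 21 to 80 genes each. Channel genes made up 1.25% to 4.88% of these lists and 0% of the other lists analysed. Folds below 1 in the authors' deposited table, IF over the other pool, were inverted here. For Cacng5 the authors' deposited table had 0.129 for GS, 0.141 for TA and 0.171 for EDL, and for Cacng7 it had 0.188 for TA. Inverted, the values of the authors' deposited table put Cacng5 7.78-fold higher in GS than in IF (adjusted p = 2.01e-06 by DESeq), 7.09-fold higher in TA and 5.86-fold higher in EDL. Inverted in the same way, the authors' deposited table put Cacng7 5.32-fold higher in TA than in IF (adjusted p = 0.0101 by DESeq). For Scn9a the authors' deposited table had folds of 6.98 for IF over TA and 3.70 for IF over GS, and for Cacna2d1 4.96 for TA over GS and 3.90 for IF over GS. The edgeR test of the GS minus IF pair gave adjusted p = 0.165 for Scn9a and 0.0773 for Cacna2d1. The authors' list of 26 genes higher in PL than in IF held no channel gene, while edgeR called Cacng5 in that pair (adjusted p = 0.00121). Lists for EDL against GS and PL against GS were not analysed here.

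Proteins that bind these channels were read from a list of 28 genes, of which 24 were tested. Of 8 tested sodium channel partners 1 was called among the 5 pools, Fgf13, an intracellular factor that binds sodium channel tails. It was at 294, 308 and 453 CPM in TA, 84.5, 145 and 79.9 in EDL, 336, 204 and 279.8 in PL, 194, 221 and 368 in GS and 485, 466 and 518 in IF. IF held the highest libraries and EDL the lowest. The folds were 1.12 ± 0.26 in IF and -1.69 ± 0.31 in EDL, with edgeR adjusted p of 0.0374 and 0.0360. The 5-pool call of Fgf13 (edgeR adjusted p = 0.0228) was lost without EDL 1, EDL 3 or any IF library (0.0820 to 0.105), the IF call without TA 1, TA 2, EDL 1, EDL 3, GS 1, GS 2 or any IF library (0.0561 to 0.238) and the EDL call without TA 2, TA 3, GS 2, GS 3 or any EDL or IF library (0.0505 to 0.252). The EDL call was also lost with library totals (0.0697 by edgeR) and the deposited RPKM divisor (0.0931). Without GS 1 the partners called among the 5 pools were 2, and without PL 1 they were 6.

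Fgf14, of the same family, and Nfasc, the adhesion molecule neurofascin of initial segments and nodes, rose in PL. Fgf14 was at 48.2, 233 and 773 CPM in PL and between 31.9 and 143 in the 12 others, and Nfasc at 689, 1336 and 2045 CPM in PL and between 353 and 1073 in the others. In both PL 1 lay within the range of the other pools. The folds were 2.43 ± 0.46 and 1.15 ± 0.27, with edgeR adjusted p of 0.00713 and 0.0183. Both calls were lost without PL 3 (0.239 and 0.190 by edgeR), and without PL 2 and PL 3 the folds of PL 1 alone (n = 1) were -0.44 and 0.17. They were also lost with library totals, the deposited RPKM divisor and limma voom. The 11 tested calcium channel partners, such as the active zone proteins Rims1 and Rimbp2, had 0 calls among the 5 pools by edgeR, 4 at an unadjusted p under 0.05, and 1 each by DESeq2 and limma voom. The 5 tested partners of HCN and of the leak channel, among them Pex5l and Nalcn, had 0 calls among the 5 pools by edgeR, DESeq2 and limma voom and 0 at an unadjusted p under 0.05.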

How the data were processed

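RNA of laser-captured motor neurons was amplified with the Ovation V2 kit, made into libraries with Nextera and sequenced from 1 end, per the labels' protocols; the kit does not mark strand. Reads were aligned with Bowtie 0.12.9 to mm9 and pools compared with DESeq, per the submitters' processing notes. Which gene counter and gene models were used is not given in the sources used here. Per the deposited columns, the table held raw read counts per gene and the authors' RPKM, whose divisor exceeded the summed counts. The authors' lists gave a fold (a ratio of mean normalised counts) with p-values. In the deposited count columns, 16 cells of 4 genes lay below 0 and those genes were left out, leaving 36810.

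From the counts, edgeR 4.0.16 in R 4.3.3 fitted all 15 libraries in 1 quasi-likelihood model with TMM factors and the filterByExpr filter, which left 14340 genes. Adjusted p-values are Benjamini-Hochberg over these genes within each contrast, called under 0.05, and folds are log2 with SE. A pool was tested against the mean of the other 4. Totals of 4417114 to 8488368 counts set the counting precision, and the common dispersion of 0.789 set the spread. No replicate pair agreed within counting noise.

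Alternatives were RLE factors, library totals, the deposited RPKM divisor, no low-count filter, DESeq2 1.42.0, limma voom (limma 3.58.1), the replicate number as a block, removal of PL 2 and PL 3, removal of each library and, for pairs, the 6 libraries alone. Fits were tested on simulated data. The members, gene lists and tests were chosen with earlier results of these data known. Values in every library are given for genes called in any comparison and, in each subfamily, for the gene of highest mean RPKM and that of smallest 5-pool p, except for some genes that are not reported here by name or in figures, though counts over all 36 include them, while Cacna1g, Cacnb3 and Scn2a1 were added after their values were seen. Promoters are RefSeq's.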

Additional observations from a re-analysis of the deposited data

How the results depend on the processing

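The figures that follow are counts of channel genes called by edgeR unless another tool is named. The cause of their changes of size under an alternative was not tested, beyond fewer samples or more genes in the fit. For most settings the share of all genes called is not given, so a changed count alone is no result about channel genes. In PL that share was 4.87% in the fit of all libraries, 1.03% with library totals and 0.696% with the deposited RPKM divisor. Among the 5 pools, 3 were called in the fit of all libraries, 8 without the low-count filter, 9 by DESeq2 and 5 without PL 2 and PL 3, where PL has n = 1 and its contrasts test little. In TA, 1 became 2 without the filter, 2 by DESeq2, 0 by limma voom and 5 without PL 2 and PL 3. In PL, 2 became 0 with library totals, 0 with the deposited RPKM divisor, 5 without the filter, 4 by DESeq2, 0 by limma voom and 0 without PL 2 and PL 3. In GS, 1 became 0 with library totals, the deposited RPKM divisor and limma voom. Over the 10 pairs, 7 became 17 without the filter, 24 by DESeq2, 17 without PL 2 and PL 3 and 15 when each pair's 6 libraries were fitted alone. For the partner genes, 1 among the 5 pools became 2 with library totals, the divisor, limma voom or without PL 2 and PL 3, 4 by DESeq2 and 5 without the filter, and 4 over the single pools became 2 with library totals and the divisor. In EDL the count was 0 under every setting tried. Over fits that left out 1 library the counts ran from 0 to 10 among the 5 pools, 0 to 2 in TA, 2 to 11 in PL, 0 to 1 in GS, 1 to 4 in IF, 2 to 31 over pairs, 0 to 6 for partners among the 5 pools and 2 to 8 for partners over single pools, and the highest of those for the 5 pools, PL, pairs and partners came without PL 1. By the median in place of the mean over libraries, 12 channel genes again lay over 10 RPKM.

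Replicate numbers were not taken to pair libraries: over 30 same-numbered pairs the correlations of deviations from pool means ran from -0.0675 to 0.128, with 1 over 0.1, and 6 of 15 libraries were closest to their own number. With the replicate number as a block, 2 channel genes were called among the 5 pools, 1 in TA, 0 in EDL, 1 in PL, 0 in GS, 2 in IF and 6 over pairs, with 0 partners among the 5 pools and 1 over single pools. The 5-pool, IF and EDL calls of Fgf13 were among those lost (0.0550, 0.0580 and 0.0883 by edgeR). Of single genes, the fold of Fgf14 in PL turned to -0.44 without PL 2 and PL 3. In the other settings tried, the calls named in the report kept their direction. With 3 libraries a pool and the spread given above, genes at a few reads per library, such as Scn11a and Cacna1i, could not be compared closely.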
